A study of Mus musculus with 18 samples.

Results

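The genes described here encode 10 subunits of the SWI/SNF (BAF) chromatin remodelling complexes, taken by name and found among the 22852 gene symbols counted in mouse bone marrow-derived macrophages (BMDMs). They are the ATPases Smarca4 (BRG1) and Smarca2 (BRM), the core subunits Smarcb1, Smarcc1 and Smarcc2, the paralogs Smarcd1, Smarcd2 and Smarcd3, and the subunits Smarce1 and Arid1a. The rule was a list of names, written with earlier results of these data known. Of the 10, 9 passed the filter on low counts and were tested, and Smarcd3, with 0 to 6 read pairs per sample, was not.

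SWI/SNF complexes use the energy of ATP to slide or evict nucleosomes, which opens DNA to transcription factors and to the transcription machinery. Each complex holds a single ATPase, either BRG1 or BRM. In the canonical BAF form, marked by Arid1a or its paralog Arid1b, the core is built from Smarcc, Smarcd, Smarcb1 and Smarce1 proteins. In macrophages these complexes are known for opening the promoters of many late genes of the response to lipopolysaccharide (LPS), and nucleosome remodelling is known to fail at some genes when macrophages become tolerant to LPS. LPS is a component of the outer membrane of Gram-negative bacteria and is sensed through Toll-like receptor 4.

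RNA-Seq read pairs were counted in 18 samples, 3 biological replicates in each of 6 groups. All groups were BMDMs grown from marrow of female C57BL/6 mice in medium conditioned by L929 cells. The mice's age and whether marrow was pooled are not given in the sources used here. Unstimulated BMDMs received neither LPS nor drug. LPS-primed BMDMs were kept for 24 h with LPS at 100 ng/ml. LPS-tolerant BMDMs had the same first dose and then, in fresh medium, 10 ng/ml for a further 3 h. LPS-stimulated BMDMs received 10 ng/ml for 3 h as their only LPS. The sample labels do not give the duration of this single dose, which was read from a supplementary scheme. Carboplatin, a platinum drug that forms DNA adducts, was given at 25 µM from 1 h before the 100 ng/ml dose in the groups named LPS-primed with carboplatin and LPS-tolerant with carboplatin. No group received carboplatin without LPS. The comparisons with unstimulated BMDMs show the effect of LPS, those of LPS-tolerant with LPS-stimulated BMDMs the effect of the earlier dose, and those with carboplatin the effect of the drug. LPS-tolerant BMDMs differ from LPS-primed BMDMs by the second dose, by fresh medium and by 3 h more in culture. No primed group had fresh medium without LPS, so these cannot be told apart. This holds for every value given for 3 h of LPS in primed BMDMs. Comparisons that share a group share its samples and are not independent of each other.

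The counted read pairs of a sample summed to 6869667 at the lowest and 14708099 at the highest (median 8986463). The macrophage label held: all 8 macrophage markers were present, summing to 15261 to 19205 CPM (library-scaled counts, normalised by TMM) without and 23634 to 32725 CPM with the 24 h dose of LPS, while the T cell markers Cd3e, Cd3d and Cd3g and the mast cell and basophil markers were at 0 in every sample. Trac, the remaining T cell marker listed, reached at most 0.435 CPM, in an LPS-primed sample with carboplatin. The summed neutrophil markers reached at most 58.2 CPM, with Mpo and Ly6g at 0. Tnf followed the LPS labels, at 9.60 ± 3.94 CPM in unstimulated and 1023 ± 494 CPM in LPS-stimulated BMDMs (SD, n = 3), and Il6 was at 0 in unstimulated and 84.1 ± 61.5 CPM in LPS-stimulated BMDMs. All 10 markers of dividing cells were present, and their sum moved with the groups. It was 1214 to 1932 CPM in unstimulated, 846 to 1829 in LPS-stimulated, 163 to 283 in LPS-primed, 119 to 318 in LPS-tolerant, and 86.9 to 133 CPM in the carboplatin groups. In bulk RNA, fewer cells of a type and less RNA per cell cannot be told apart.

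The promoters of both ATPases and of Smarcd3 are shown because the results turn on the contrast between Smarca4 and Smarca2 and on the near absence of Smarcd3 reads. The sequences are the 250 bases before the annotated gene start in RefSeq (mouse build GRCm38.p6), read 5′ to 3′ on the gene's strand. Capitals mark the GC box, GGGCGG or its complement CCGCCC, a motif bound by Sp1 family factors.
Smarca4, chr9:21615919-21616168, plus strand: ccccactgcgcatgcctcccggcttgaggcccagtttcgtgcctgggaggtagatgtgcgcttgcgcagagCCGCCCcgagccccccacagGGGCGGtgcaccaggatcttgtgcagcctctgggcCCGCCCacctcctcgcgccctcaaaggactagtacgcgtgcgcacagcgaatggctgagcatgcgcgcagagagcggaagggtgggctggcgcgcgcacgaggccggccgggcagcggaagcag
Smarca2, chr19:26604910-26605159, plus strand: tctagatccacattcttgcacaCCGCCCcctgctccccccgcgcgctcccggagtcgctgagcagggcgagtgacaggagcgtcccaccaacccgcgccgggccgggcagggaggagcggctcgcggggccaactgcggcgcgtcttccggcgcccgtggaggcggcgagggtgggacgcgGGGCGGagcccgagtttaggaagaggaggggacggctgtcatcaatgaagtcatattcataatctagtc
Smarcd3, chr5:24602003-24602252, minus strand: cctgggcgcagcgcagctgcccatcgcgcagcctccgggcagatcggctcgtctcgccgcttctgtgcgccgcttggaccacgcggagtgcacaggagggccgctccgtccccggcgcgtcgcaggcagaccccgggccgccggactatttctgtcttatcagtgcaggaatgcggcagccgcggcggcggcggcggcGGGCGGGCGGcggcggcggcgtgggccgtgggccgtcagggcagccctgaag
Such a window was found for 9 of the 10 genes, all but Smarce1, with 2 windows for Arid1a. A GC box on either strand was present in the 250 bases for 8 of these 9 genes (all but Smarcc2), against 32.7% of 32851 annotated windows of that length. The other motifs were also searched on both strands. The ETS motif CCGGAAG was present for Smarca2 and Smarcc1, against 6.91% of all windows. The PU.1 core GAGGAAG was present for Smarcb1, against 10.6%, and so was the AP-1 motif TGANTCA, against 6.75%. The NF-κB consensus was present for 0 of the 9, against 3.90% of all windows. These matches describe letters only.

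Before any comparison, the level of each subunit was set against the others per length, as RPKM, computed with the length of all exons merged. In unstimulated BMDMs, Smarcc2 at 29.0 ± 2.3 RPKM and Smarca4 at 27.9 ± 4.6 RPKM (SD, n = 3) were the most abundant, and their ranges overlapped. Smarcd2 followed at 19.4 ± 1.4 RPKM, below every sample of both. Smarce1 at 10.6 ± 0.5, Arid1a at 9.54 ± 1.83 and Smarcc1 at 6.89 ± 0.53 RPKM came next, with Arid1a overlapping both of its neighbours. Smarcb1 at 4.59 ± 0.96, Smarca2 at 4.04 ± 0.52 and Smarcd1 at 4.0 ± 0.59 RPKM overlapped each other, and Smarcd3 stood at 0.0566 ± 0.0369 RPKM. The CPM of the 10 genes summed to 848 to 924 in unstimulated, 838 to 955 in LPS-stimulated, 786 to 811 in LPS-primed and 773 to 839 in LPS-tolerant BMDMs. With the length of the canonical transcript, used after seeing the annotation, Smarcc2 stayed first at 45.8 RPKM and Smarcd3 last at 0.148 RPKM, while Smarca4 at 28.5 RPKM came 4th and Smarcb1 at 24 RPKM 5th. The order between these therefore depends on the length used.

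**Figure D1:**
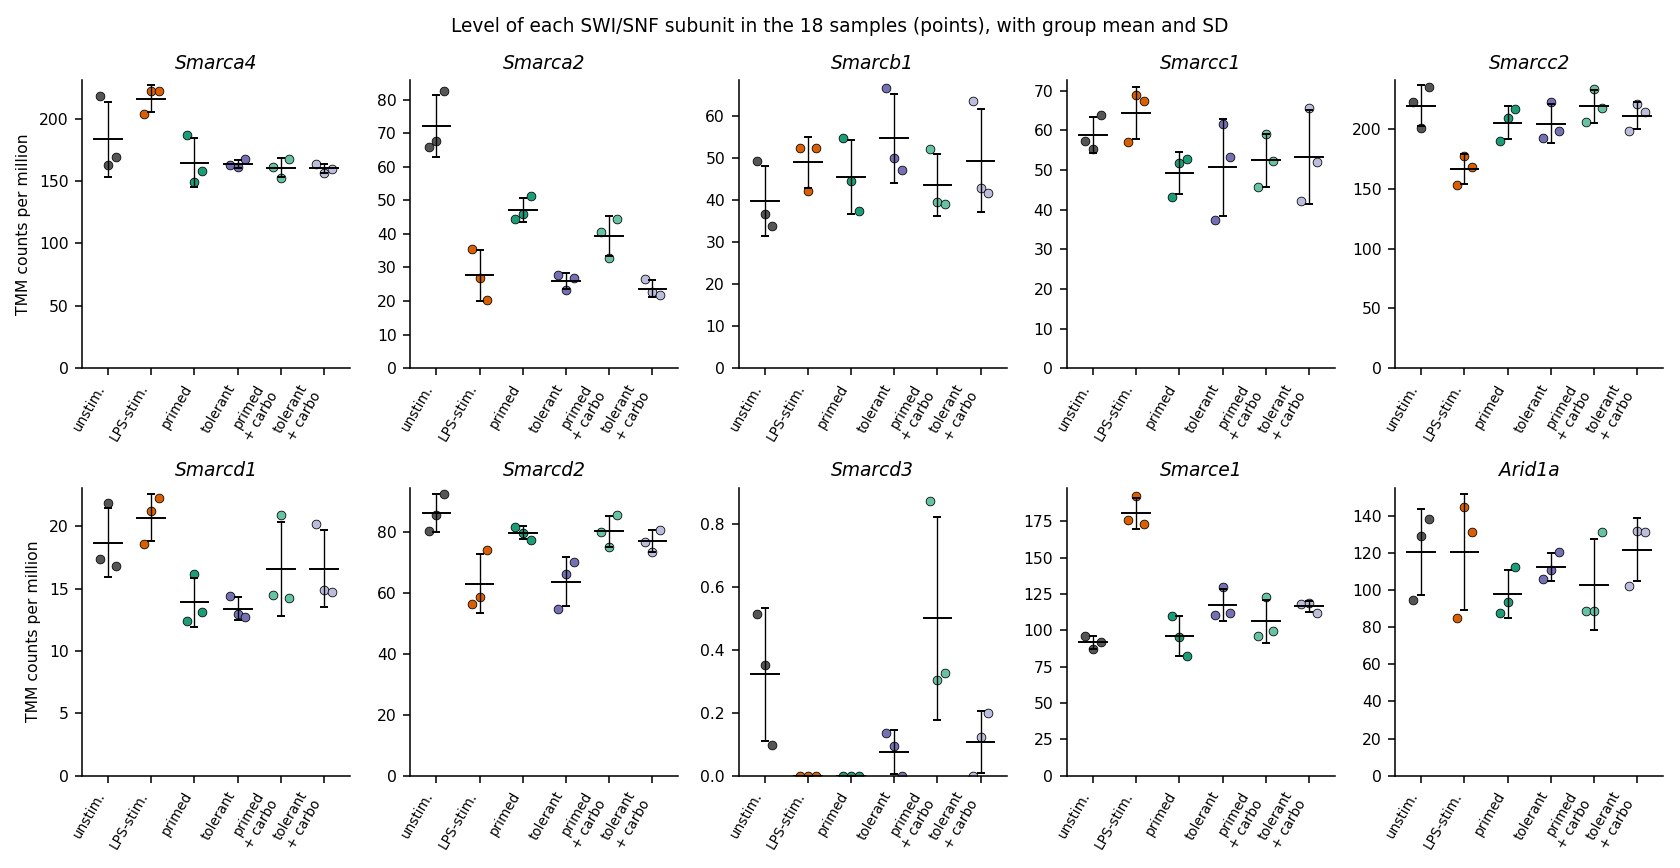
CPM (counts scaled to library size with TMM factors) of the 10 subunits (vertical axes, from 0) in the 6 groups; each point is a sample, the line the mean of 3 and the whisker the SD. Smarca2 is highest in the 3 unstimulated samples and Smarce1 in the 3 LPS-stimulated samples, and Smarcd3 stays under 1 CPM throughout.

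The ATPases moved apart. Smarca2, which encodes BRM, was lower after 24 h of LPS, after 3 h of LPS and again in LPS-tolerant than in LPS-primed BMDMs. Smarca4, which encodes BRG1, passed the test with all samples in 1 of the 9 comparisons, LPS-tolerant against LPS-stimulated. Smarca2 (chromosome 19, 26582450 to 26755722, plus strand, GRCm39) measured 65.8, 67.7 and 82.6 CPM in unstimulated BMDMs. Its level was 44.3, 45.8 and 51.3 CPM in LPS-primed, 35.6, 27.0 and 20.4 CPM in LPS-stimulated, and 27.9, 23.4 and 27.0 CPM in LPS-tolerant BMDMs. All 3 unstimulated samples lay above all 15 samples that had received LPS, and the LPS-primed samples lay above the LPS-stimulated and LPS-tolerant samples, which overlapped.

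After 24 h of LPS, Smarca2 was the only 1 of the 9 subunits called at an adjusted p under 0.05 (edgeR quasi-likelihood F test, adjusted over 11305 genes), where 25.2% of all genes tested were called, 13.1% lower. It fell by 34.6%, with a log2 fold change (log2FC) of -0.61 (SE 0.18, adjusted p = 0.0207, lower in 3 of 3 pairs). This call was lost without unstimulated replicate 3 (adjusted p = 0.105), LPS-primed replicate 1 (0.0734) or LPS-primed replicate 2 (0.0635). The log2FC of the 9 subunits had a median of -0.15, beside -0.02 for all genes. Without TMM scaling the median of all genes moved by -0.24, and 4 subunits were called lower, Smarca2, Smarca4 (log2FC -0.39), Smarcc2 (-0.33) and Smarcd1 (-0.66). In that setting 3530 of the 11305 genes were called, 2598 of them lower. The ranges of the dividing-cell and macrophage marker sums given above did not overlap between these groups, and their part in the fall of Smarca2 was not tested.

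After the single dose of 10 ng/ml for 3 h, 4 of the 9 subunits were called, 3 lower and 1 higher, where 51.2% of all genes were called, 26.9% lower and 24.3% higher. Smarca2 fell by 61.6% (log2FC -1.38, SE 0.19, adjusted p = 1.26e-05). Smarca4 measured 218, 163 and 169 CPM in unstimulated and 204, 222 and 222 CPM in LPS-stimulated BMDMs, which overlapped, and its log2FC of 0.24 (SE 0.13, adjusted p = 0.126) did not pass. Without unstimulated replicate 1, its highest unstimulated sample, the log2FC was 0.40 and passed (adjusted p = 0.0178). The median log2FC of the 9 subunits was 0.13, beside -0.09 for all genes, and without TMM scaling the median of all genes moved by -0.34 with the direction of the 4 calls kept.

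LPS-tolerant BMDMs were then compared with LPS-stimulated BMDMs, which received the same last dose. Of the 9 subunits, 3 were called, all lower, where 34.5% of all genes were called, 18.3% lower, and the median log2FC was -0.10 beside 0.00 for all genes. Smarca4 (chromosome 9, 21527398 to 21615526, plus strand, GRCm39) measured 163, 161 and 167 CPM in LPS-tolerant BMDMs, below all 3 LPS-stimulated samples. It fell by 24.3% (log2FC -0.40, SE 0.13, adjusted p = 0.0203). Leaving out LPS-tolerant replicate 1 or 2, or LPS-stimulated replicate 2 or 3, put its adjusted p between 0.0576 and 0.0611, and the call was also lost with only the groups compared in the fit (0.0789) and without the filter on low counts (0.0526). Smarca2 did not pass, with a log2FC of -0.08 (95% interval -0.48 to 0.31). The same marker sums did not overlap between LPS-tolerant and LPS-stimulated BMDMs either, and their part in these 3 calls was not tested.

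The second dose, given in fresh medium, was also compared with priming alone. The dose, the fresh medium and the added time cannot be told apart here. Between LPS-tolerant and LPS-primed BMDMs, Smarca2 was the only 1 of the 9 called, where 6.31% of all genes were called, 2.71% lower. It fell by 44.7% (log2FC -0.85, SE 0.19, adjusted p = 0.0112), with all 3 LPS-tolerant samples below all 3 LPS-primed samples. Without LPS-primed replicate 3 the adjusted p was 0.0556, and without LPS-tolerant replicate 2 it was 0.0545. With the replicate number as a block, Smarcd2 was also called (log2FC -0.33, adjusted p = 0.0424), giving 2 of 9 where 18% of all genes were called. The median log2FC of the 9 was -0.01, as it was for all genes.

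**Figure D2:**
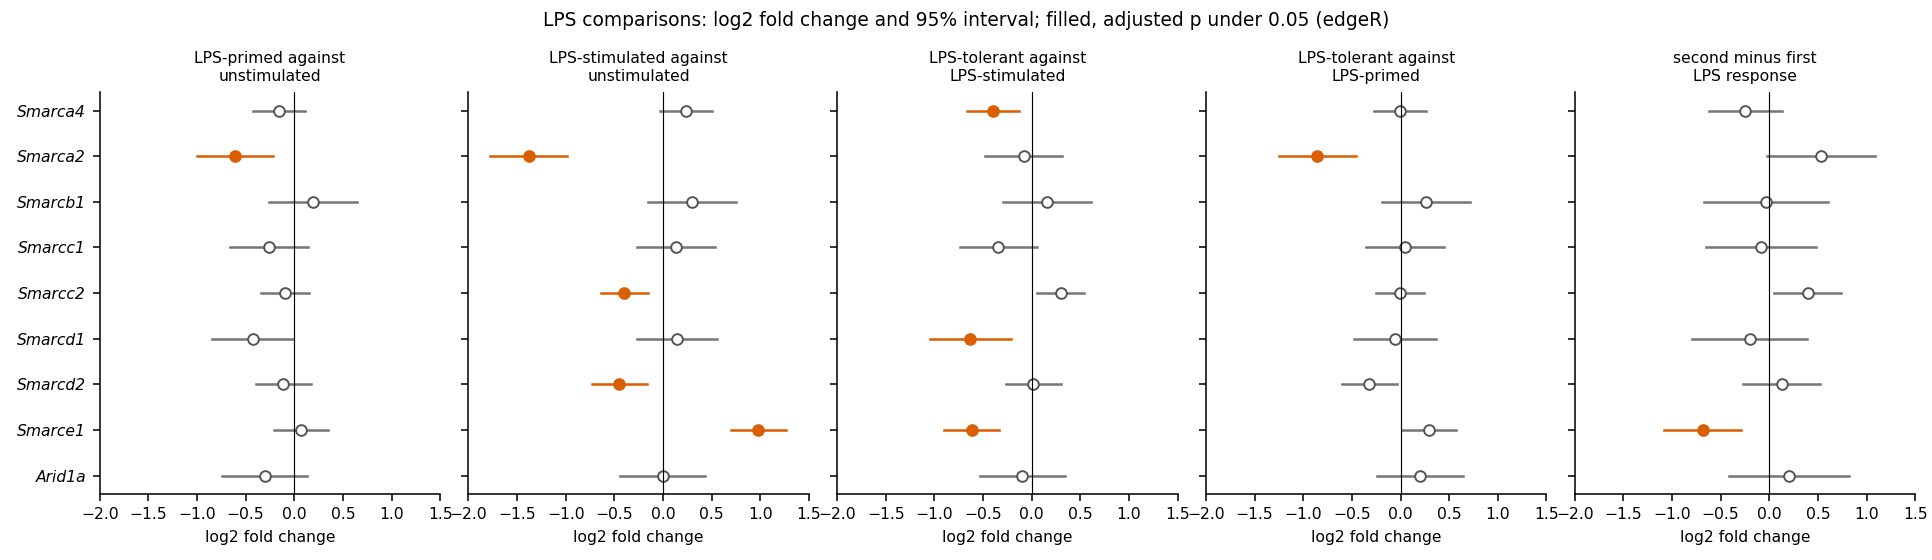
log2 fold change (horizontal axes) of the 9 tested subunits in 5 LPS comparisons, with 95% intervals; filled points have an adjusted p under 0.05 over all genes. Smarca2 lies furthest to the left in the comparisons of LPS-stimulated with unstimulated and LPS-tolerant with LPS-primed samples, and Smarce1 is the only filled point right of 0.

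Among the core subunits, Smarcc2 fell and Smarcc1 and Smarcb1 did not pass the test after 3 h of LPS. Smarcc1 (BAF155) and Smarcc2 (BAF170) are the paired scaffold on which the complex is built, and Smarcb1 contacts the nucleosome. Smarcc2 (chromosome 10, 128294424 to 128326456, plus strand) measured 223, 201 and 235 CPM in unstimulated and 153, 178 and 169 CPM in LPS-stimulated BMDMs, with no overlap. It fell by 24.2% (log2FC -0.40, SE 0.12, adjusted p = 0.00834), and its adjusted p was 0.0508 without unstimulated replicate 3 and 0.126 with only the groups compared in the fit. LPS-tolerant BMDMs measured 192, 223 and 199 CPM, above all LPS-stimulated samples. The log2FC of 0.30 (SE 0.12) missed the threshold with an adjusted p of 0.0558 and passed it with the replicate block (adjusted p = 0.0151), with DESeq2 (0.0215) and with limma-voom (0.0496).

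Smarcc1 (chromosome 9, 109946776 to 110069252, plus strand) was at 57.2, 55.2 and 63.9 CPM in unstimulated and 56.9, 68.8 and 67.5 CPM in LPS-stimulated BMDMs, which overlapped. In LPS-tolerant BMDMs it spread from 37.4 to 61.5 CPM. Its log2FC against LPS-stimulated BMDMs was -0.34 (SE 0.19, adjusted p = 0.176), and the replicate block gave an adjusted p of 0.0287, so that 5 of the 9 subunits were called with the block, where 47.6% of all genes were. Smarcb1 (chromosome 10, 75732602 to 75757456, minus strand) ranged from 33.7 to 66.7 CPM over the 18 samples, and its ranges overlapped between all groups. Its largest log2FC, 0.30 (SE 0.21) after 3 h of LPS, had an adjusted p of 0.260, and 0.0305 with the block. Exons of Smarcc2 overlap those of Myl6, and exons of Smarcc1 those of Dhx30, on the opposite strand, and whether strand was used in the counting is not given in the sources used here.

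The Smarcd genes encode alternative BAF60 subunits, of which a complex holds 1, that link the remodeller to transcription factors. Smarcd2 fell after 3 h of LPS, whereas Smarcd1 fell between LPS-stimulated and LPS-tolerant BMDMs. Smarcd2 (chromosome 11, 106151119 to 106163906, minus strand) measured 80.3, 85.7 and 92.7 CPM in unstimulated and 56.4, 58.7 and 74.3 CPM in LPS-stimulated BMDMs, with no overlap. It fell by 26.8% (log2FC -0.45, SE 0.13, adjusted p = 0.00959), and its adjusted p was 0.0528 without unstimulated replicate 3 and 0.117 with only the groups compared in the fit. Its exons overlap those of Psmc5 on the opposite strand.

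Smarcd1 (chromosome 15, 99599991 to 99611876, plus strand) measured 18.6, 21.2 and 22.2 CPM in LPS-stimulated and 14.4, 13.0 and 12.7 CPM in LPS-tolerant BMDMs, with no overlap. It fell by 35.4% (log2FC -0.63, SE 0.20, adjusted p = 0.0200). Leaving out LPS-tolerant replicate 2 or 3, or LPS-stimulated replicate 2 or 3, put its adjusted p between 0.0539 and 0.0670. After 24 h of LPS its log2FC of -0.43 (SE 0.20) had an adjusted p of 0.128.

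Smarce1, an HMG-domain subunit of the canonical BAF core, gave the only rise. It (chromosome 11, 99099858 to 99122051, minus strand) measured 95.9, 87.3 and 91.7 CPM in unstimulated and 176, 193 and 173 CPM in LPS-stimulated BMDMs. Its level was 110, 95.5 and 82.5 CPM in LPS-primed and 111, 130 and 112 CPM in LPS-tolerant BMDMs, so that every LPS-stimulated sample lay above every other sample. Smarce1 rose 1.97-fold after 3 h of LPS (log2FC 0.98, SE 0.13, adjusted p = 1.27e-05) and was lower in LPS-tolerant BMDMs than after the single dose (log2FC -0.62, SE 0.13, adjusted p = 0.00152). Both calls were kept without any single library. Its exons overlap no other annotated gene.

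The response to the 3 h dose was then compared between naive and primed BMDMs, as the difference of both log2FCs. Smarce1 was the only 1 of the 9 subunits called, where 23.8% of all genes were called, 13.3% with a negative difference. With the block 36.2% of all genes and 2 of the 9 subunits were called, Smarcc2 being added. The log2FC of Smarce1 was 0.98 in naive and 0.29 (SE 0.13, adjusted p = 0.212) in primed BMDMs, a difference of -0.69 (SE 0.19, adjusted p = 0.0128). Without TMM scaling, which moved the median of all genes by 0.24 here, the difference was -0.44 and did not pass (adjusted p = 0.0851), while Smarca2 (0.76, adjusted p = 0.0427) and Smarcc2 (0.63, adjusted p = 0.0115) did. For Smarca2 the corresponding difference was 0.53 (SE 0.26, adjusted p = 0.171), with a 95% interval of -0.03 to 1.08, and leaving out LPS-stimulated replicate 1 made it pass (adjusted p = 0.0334). The median difference over the 9 subunits was -0.03, beside 0.06 for all genes. The study's limit of 2 on the size of the log2FC was passed by 0 of the 9 in each LPS comparison. The shares of all genes that passed both limits were 7.47% after 24 h of LPS, 12% after 3 h, 8.04% for LPS-tolerant against LPS-stimulated, 0.681% for LPS-tolerant against LPS-primed and 8.01% for the difference between the responses.

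Arid1a, the DNA-binding subunit of canonical BAF, was called in 0 of the 9 comparisons by edgeR, DESeq2 or limma-voom, and in 0 of them had it an unadjusted p under 0.05 in edgeR. Arid1a (chromosome 4, 133406304 to 133484080, minus strand) measured 94.6, 129 and 139 CPM in unstimulated and 85.1, 145 and 131 CPM in LPS-stimulated BMDMs. Replicate 1 was the lowest in both groups, and the ranges overlapped between all groups. Its 95% interval for 3 h of LPS ran from 0.74-fold to 1.35-fold.

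Ratios of paralogs within a library do not depend on scaling, so 3 ratios were compared over both strata of each factor, by an exact two-sided permutation test with 400 arrangements of labels and a smallest possible p of 0.005, adjusted over 9 tests. The count ratio of Smarca2 to Smarca4 fell by 1.25 on the log2 scale with 3 h of LPS (exact p = 0.005, adjusted p = 0.0225), by 1.66 in naive and by 0.85 in primed BMDMs. The ratio ran from -1.72 to -1.04 on the log2 scale in unstimulated and from -3.44 to -2.51 in LPS-stimulated BMDMs. For 24 h of LPS the mean difference was -0.06 (exact p = 0.805), made up of -0.46 between LPS-primed and unstimulated and 0.35 between LPS-tolerant and LPS-stimulated BMDMs. Per length of merged exons, Smarca2 made up 12.9 ± 2.6% of both ATPases in unstimulated, 4.55 ± 1.41% in LPS-stimulated, 9.65 ± 1.40% in LPS-primed and 5.56 ± 0.43% in LPS-tolerant BMDMs (SD, n = 3). With the length of the canonical transcript, chosen after seeing the annotation, the same shares were 25.5, 9.97, 19.9 and 12.1%.

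The ratio of Smarcd2 to Smarcd1 was higher with 24 h and lower with 3 h of LPS, and that of Smarcc2 to Smarcc1 passed with 24 h of LPS only. With 24 h of LPS the ratio of Smarcc2 to Smarcc1 was higher by 0.42 on the log2 scale (exact p = 0.005, adjusted p = 0.0225) and that of Smarcd2 to Smarcd1 by 0.48 (exact p = 0.01, adjusted p = 0.03). With 3 h of LPS the ratio of Smarcd2 to Smarcd1 fell by 0.45 (exact p = 0.015, adjusted p = 0.0338), and that of Smarcc2 to Smarcc1 differed by -0.28 without passing (exact p = 0.05, adjusted p = 0.09). The strata differed in size, and the LPS-stimulated group, which enters both averaged effects, had the lowest mean of both ratios. For Smarcc2 to Smarcc1 the difference was 0.16 between LPS-primed and unstimulated and 0.67 between LPS-tolerant and LPS-stimulated BMDMs, and for the 3 h dose -0.53 in naive and -0.03 in primed BMDMs. For Smarcd2 to Smarcd1 these values were 0.31, 0.64, -0.61 and -0.28 in the same order. The Smarcd2 to Smarcd1 results did not pass without LPS-primed replicate 1 (adjusted p = 0.063) or 3 (0.0563). Labels were also exchanged only within same-numbered pairs, which allows 64 arrangements and no p under 0.0313. The adjusted p was then 0.141 for Smarcd2 to Smarcd1 with 3 h of LPS and 0.0938 for the other 3 results that passed. With so high a smallest p, adjustment over all ratio tests leaves little room to pass. These values therefore cannot decide whether the results hold within pairs. Per length of merged exons, Smarcc2 made up 74.5 ± 0.7% of its pair in LPS-stimulated and 80.8 ± 0.5% in unstimulated BMDMs, and Smarcd2 76.1 ± 1.7% and 82.9 ± 2.4%.

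**Figure D3:**
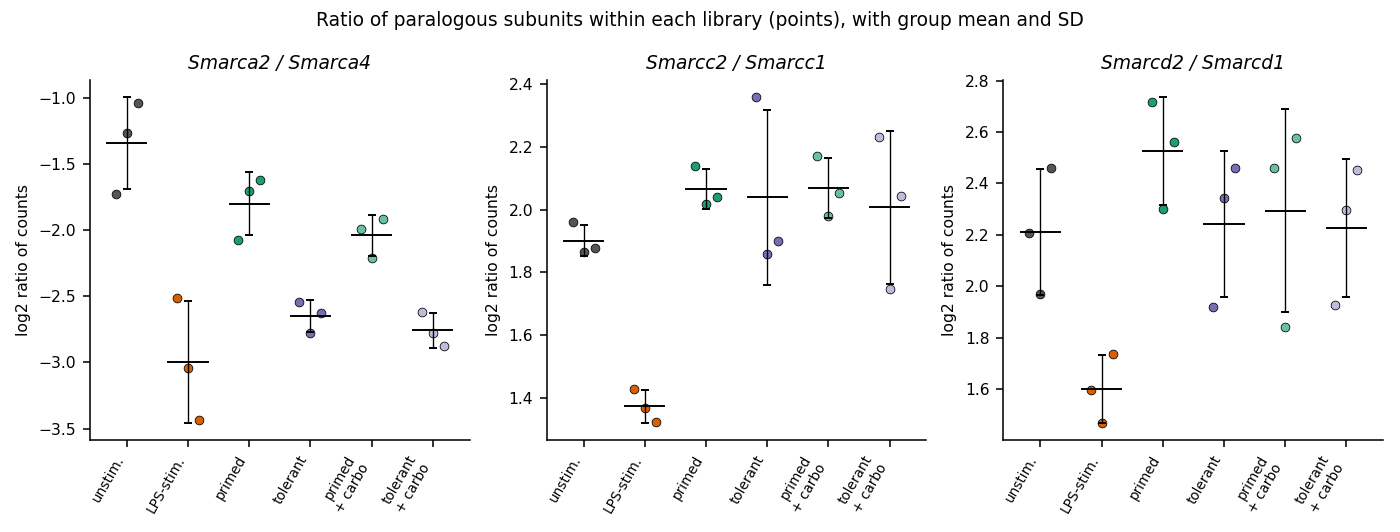
log2 ratio of the counts of paralogous subunits (vertical axes) within each library in the 6 groups; each point is a sample, the line the mean of 3 and the whisker the SD. The mean Smarca2 to Smarca4 ratio is highest in unstimulated BMDMs, whose lowest sample overlaps LPS-primed BMDMs, and the Smarcc2 to Smarcc1 ratio is lowest in the 3 LPS-stimulated samples, from 1.32 to 1.43.

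Smarcd3 was close to absent beside its paralogs. Smarcd3 (chromosome 5, 24795816 to 24829409, minus strand) encodes BAF60C, known from heart and skeletal muscle. It received 5, 4 and 1 read pairs in unstimulated, 0 in each LPS-stimulated and each LPS-primed sample, and 1, 1 and 0 in LPS-tolerant BMDMs. Of all read pairs on the 3 Smarcd genes, 10 of 3303 (0.303%) in unstimulated BMDMs were on Smarcd3, with an exact Clopper-Pearson 95% interval of 0.145 to 0.556%. The share was 0 of 2571 in LPS-stimulated and 0 of 2513 in LPS-primed BMDMs. The same exact 95% interval reaches up to 0.143% and 0.147% there, so that of LPS-primed BMDMs overlaps that of unstimulated BMDMs.

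With carboplatin, LPS-primed BMDMs had 6, 3 and 3 Smarcd3 read pairs, 12 of 2538 (0.473%, 95% interval 0.245 to 0.824%), against 0 in all 3 LPS-primed samples without the drug. LPS-tolerant BMDMs with carboplatin had 0, 1 and 2 (0.126%, 95% interval 0.0260 to 0.368%), against 2 of 2114 without it. These intervals cover counting error only and sum over 3 samples. When the filter on low counts was left out, edgeR gave Smarcd3 a log2FC of 5.22 for carboplatin in LPS-primed BMDMs. Its adjusted p of 0.389 did not pass. Against unstimulated BMDMs, the adjusted p was 0.0657 for LPS-primed BMDMs, which did not pass, and 0.0296 for LPS-stimulated BMDMs, which did. The study used DESeq2 and lists Smarcd3 as higher with carboplatin in LPS-primed macrophages, within its limit of 0.25. The study singled out Smarcd3 from these samples, so these counts are not independent evidence. Its exons overlap those of Chpf2 on the opposite strand.

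**Figure D4:**
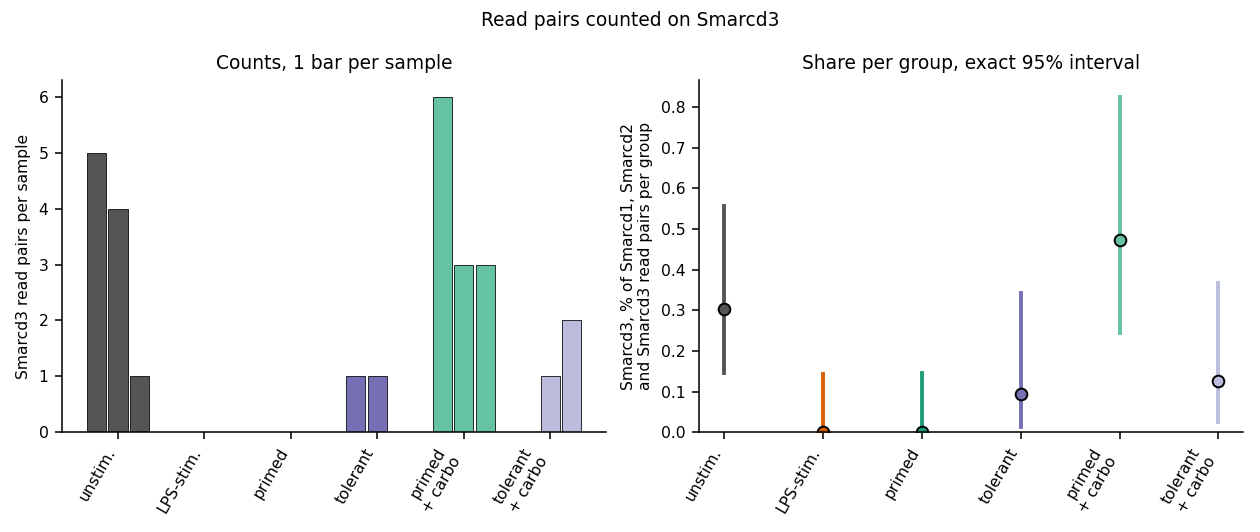
Left, read pairs counted on Smarcd3, 1 bar per sample, 3 per group; right, Smarcd3 as a percentage of the read pairs on Smarcd1, Smarcd2 and Smarcd3 summed per group, with the exact 95% binomial interval. Counts reach at most 6 in a sample, in LPS-primed BMDMs with carboplatin, and are 0 in all LPS-stimulated and LPS-primed samples.

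Carboplatin moved none of the 9 tested subunits past the threshold. In LPS-primed BMDMs, 0 of 9 were called at an adjusted p under 0.25 (edgeR), where 1.2% of all genes were called, and in LPS-tolerant BMDMs 0 of 9, where 1.65% were. An unadjusted p under 0.05 was reached by 0 of the 9 in either state, and DESeq2 and limma-voom called 0 as well. The lowest and highest ends of the 95% intervals of the fold change were 0.635 (Smarca2) and 1.60 (Smarcd1) in LPS-primed BMDMs. In LPS-tolerant BMDMs they were 0.660 (Smarcb1) and 1.66 (Smarcd1). These ends come from different subunits, and the smallest detectable change was not tested. The median log2FC of the 9 was 0.07 in LPS-primed and 0.05 in LPS-tolerant BMDMs, beside 0.01 for all genes in both.

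Both carboplatin effects were also averaged. Over both LPS states, 0 of 9 subunits were called, where 5.95% of all genes were. Smarcd1 had the highest value, a log2FC of 0.28 (SE 0.14, adjusted p = 0.456), measuring 14.5, 20.9 and 14.3 CPM with and 12.4, 16.2 and 13.1 CPM without carboplatin in LPS-primed BMDMs, and 20.1, 14.9 and 14.7 CPM with and 14.4, 13.0 and 12.7 CPM without it in LPS-tolerant BMDMs. It was higher with carboplatin in each pair of same-numbered samples, and with the replicate block it was called (adjusted p = 0.228), as were 19.9% of all genes. Smarca2 had the lowest value, a log2FC of -0.20 (SE 0.13, adjusted p = 0.627). The difference between both carboplatin effects was called for 0 of the 9 subunits and for 0% of all genes, with 0 of the 9 and 131 of all genes at an unadjusted p under 0.05.

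**Figure D5:**
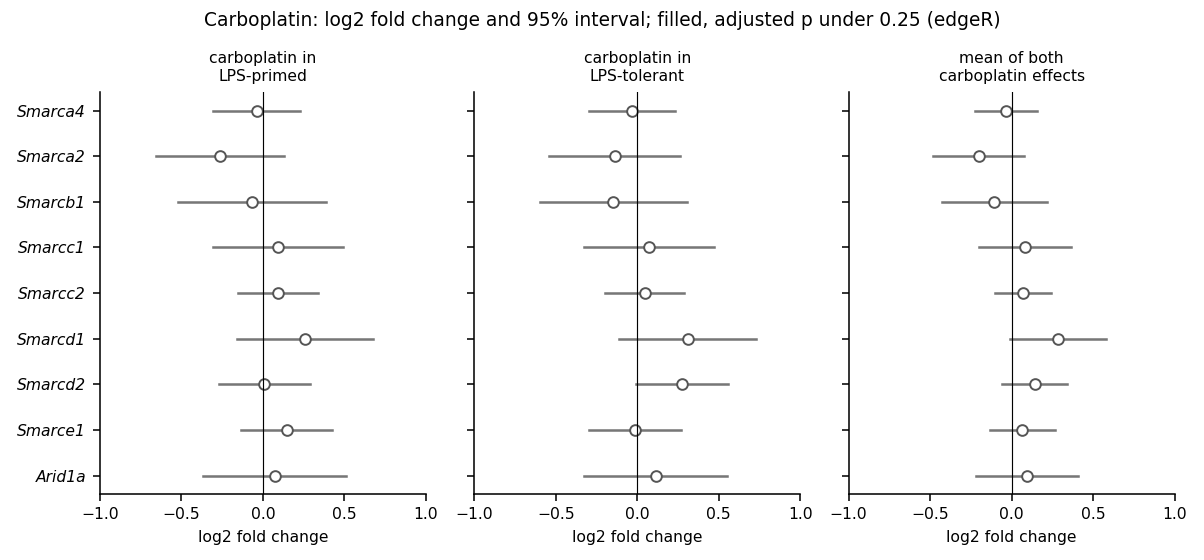
log2 fold change with carboplatin (horizontal axes) of the 9 tested subunits in LPS-primed BMDMs, in LPS-tolerant BMDMs and as the mean of both, with 95% intervals; a filled point would have an adjusted p under 0.25 over all genes. No point is filled and every interval includes 0, with Smarcd1 furthest right at 0.28 in the mean of both.

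A further 20 subunits of SWI/SNF complexes were listed beside these 10, of which 15 passed the filter. Actl6b, Bcl11a, Bcl11b, Dpf1 and Dpf3, best known from neurons, lymphocytes or muscle, were too low to test. Of the 15, 4 were called after 24 h of LPS (3 lower, 1 higher), 7 after 3 h (5 lower, 2 higher), 3 between LPS-tolerant and LPS-stimulated BMDMs (2 lower, 1 higher), and 1 between LPS-tolerant and LPS-primed BMDMs. The shares of all genes called in these comparisons were 25.2, 51.2, 34.5 and 6.31%. With the replicate block, 5, 10, 4 and 3 of the 15 were called, where 4367, 7148, 5380 and 2034 of the 11305 genes were. The median log2FCs of the 15 were -0.07, -0.05, 0.04 and 0.11 in that order.

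Dpf2, a histone-reading subunit of canonical BAF, followed a course like that of Smarce1. It measured 59.1, 62.2 and 51.8 CPM in unstimulated and 129, 110 and 122 CPM in LPS-stimulated BMDMs, and 65.0, 61.1 and 61.7 CPM in LPS-primed and 73.5, 62.2 and 65.7 CPM in LPS-tolerant BMDMs. All LPS-stimulated samples lay above all others of these groups. Dpf2 rose after 3 h of LPS (log2FC 1.06, SE 0.13, adjusted p = 2.99e-06) and was lower in LPS-tolerant BMDMs than after the single dose (log2FC -0.84, SE 0.13, adjusted p = 6.56e-05).

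Arid1b, the paralog of Arid1a, fell where Arid1a did not pass. It measured 86.8, 111 and 106 CPM in unstimulated, 36.7, 41.9 and 37.0 CPM in LPS-stimulated, 56.2, 80.5 and 71.3 CPM in LPS-primed and 34.7, 52.8 and 58.7 CPM in LPS-tolerant BMDMs. Every unstimulated sample was above every sample of the other 3. Its log2FC was -1.40 (SE 0.18, adjusted p = 8.89e-06) after 3 h and -0.55 (SE 0.18, adjusted p = 0.0325) after 24 h of LPS, the second call being lost without unstimulated replicate 2 (adjusted p = 0.128) or 3 (0.0954) or LPS-primed replicate 1 (0.152) or 3 (0.0717). Bicra, which marks the non-canonical form of the complex, fell after 3 h of LPS (log2FC -1.45, SE 0.24, adjusted p = 7.72e-05), and Phf10 of the PBAF form fell in that comparison (log2FC -0.66) and rose after 24 h (log2FC 0.48, adjusted p = 0.0473, not called without TMM scaling, with an adjusted p of 0.320). The second Phf10 call was lost in 11 of 18 fits that left out a library, with the highest adjusted p, 0.207, without LPS-primed replicate 3. It was also lost in 4 of 9 other settings, among them only the groups compared in the fit (0.0623) and no filter on low counts (0.0677). Bcl7a fell after 3 h (log2FC -2.20, adjusted p = 0.0210), which was lost without unstimulated replicate 2 (0.0840) or LPS-stimulated replicate 1 (0.0581). Bcl7c rose after 3 h (log2FC 0.70, adjusted p = 0.00591, and 0.0950 without TMM scaling) and fell after 24 h of LPS (log2FC -0.61, adjusted p = 0.0283). The second Bcl7c call was lost without unstimulated replicate 1 (adjusted p = 0.0819) or 2 (0.134), or LPS-primed replicate 2 (0.0556) or 3 (0.13). It was also lost without the filter on low counts (0.057) and with only the groups compared in the fit (0.0836). Brd9, the bromodomain subunit of the non-canonical form, fell after 24 h (log2FC -0.68, adjusted p = 0.0127), a call lost without unstimulated replicate 2 (0.0537) or LPS-primed replicate 3 (0.0729).

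With carboplatin, Arid1b was the only 1 of these 15 called, over both LPS states (log2FC -0.41, SE 0.13, adjusted p = 0.142), where 5.95% of all genes were. It measured 50.6, 49.5 and 48.5 CPM with the drug in LPS-primed BMDMs, below all 3 samples without it, and 34.4, 40.1 and 41.7 CPM with it in LPS-tolerant BMDMs, which overlapped. The call was lost without LPS-primed replicate 2 (adjusted p = 0.359), LPS-tolerant replicate 2 (0.311) or 3 (0.353), or LPS-tolerant with carboplatin replicate 1 (0.304). With the replicate block, 3 of the 15 were called over both LPS states, Arid1b and Dpf2 and Bcl7c, where 19.9% of all genes were. In LPS-primed BMDMs the block called Arid1b alone (adjusted p = 0.09), where 7.87% of all genes were called.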

How the data were processed

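The RNA-Seq libraries were made per sample from poly(A) RNA with a stranded kit. Per the labels and the study's methods, the authors aligned the read pairs to GRCm39 with HISAT2 and deposited raw HTSeq counts per gene; program versions, the gene models and HTSeq's strand setting are not given in the sources used here. Rows that name no gene were left out of library sizes and tests: read pairs outside annotated genes were 26.5 to 33.1% of a sample, and those aligned to several places 4.21 to 5.18%. The members and gene lists were chosen with earlier results of these data known.

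The quasi-likelihood F test of edgeR 4.0.16 (R 4.3.3) was fitted to all 18 samples with 1 coefficient per group, TMM scaling, the default filter (minimum count 10, minimum total 15) and a prior count of 0.125. Benjamini-Hochberg adjustment ran over the 11305 genes tested. The limits were 0.05 for LPS and 0.25 for carboplatin, as in the study, without its limit of 2 on the size of the log2FC. An SE was taken as |log2FC| over the root of F. The fit was tested on simulated data. Replicates were separate samples of a group. If the mice were not separate, p values measure technical spread only. Same-numbered samples deviated together: correlations of their residuals averaged 0.35 (0.06 to 0.57), every pair being over 0.1 in 8 of 9 comparisons. Values with the replicate number as a block are therefore given where they change a call of a member, and for the other listed genes only in part. RPKM and CPM were computed here, with exon lengths and positions from GENCODE (GRCm39). The study's other tests were not used. Other subunits were named by the smallest adjusted p, up to 6 in an LPS and 3 in a carboplatin comparison, and ATPases of other remodellers up to 2. Alternatives were DESeq2 1.42.0, limma 3.58.1 (voom), other scalings and filters, the groups compared alone, and each library left out.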

Additional observations from a re-analysis of the deposited data

Results flagged for a closer look

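The response to 3 h of LPS differed between naive and primed BMDMs, by a direct test of the difference of both log2FCs in edgeR, for 1 of the 9 tested members and for 2 of the other 15 subunits, where 23.8% of all genes were called. The difference was -0.69 (SE 0.19, adjusted p = 0.0128) for Smarce1 and -0.96 (SE 0.18, adjusted p = 0.000722) for Dpf2. Both rose in naive BMDMs, while in primed BMDMs the log2FC of Smarce1 was 0.29 and that of Dpf2 0.10, and neither passed. For Arid1b it was 0.89 (SE 0.26, adjusted p = 0.0178), with a log2FC of -1.40 in naive BMDMs and of -0.51 in primed BMDMs. The fall in primed BMDMs did not pass (adjusted p = 0.111), but it was called with the replicate block, where 18% of all genes were. The call of the Arid1b difference was lost without LPS-primed replicate 1 (adjusted p = 0.0506) or LPS-tolerant replicate 3 (0.0591). With the block, 4 of the other 15 subunits were called for the difference, where 36.2% of all genes were.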

How the results depend on the processing

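No result changed sign past its threshold. Of the members called, the number moved from 1 to 4 without TMM scaling after 24 h of LPS, from 4 to 2 with only the groups compared after 3 h, and from 1 to 2 for the difference between both LPS responses with DESeq2 or with the replicate block, which added Smarcc2 to Smarce1. Without TMM scaling the number there was also 2, but Smarce1 was lost and Smarca2 and Smarcc2 were called. Without TMM scaling, 932 genes were called higher and 2598 lower after 24 h of LPS (1370 and 1477 with it), and 1847 and 4636 after 3 h (2749 and 3040). The replicate block gave 5 members for LPS-tolerant against LPS-stimulated, 2 for LPS-tolerant against LPS-primed and 1 for carboplatin over both states; in the difference between both LPS responses 1 pair of samples correlated at 0.06 only, and Smarcc2 was the added call (adjusted p = 0.0265). Beside these and Smarcb1 after 3 h of LPS, the block changed no call of a member in edgeR. The study's limit of 2 on the log2FC left 0 members in each comparison. With the p limits exchanged, the numbers were 2 (24 h of LPS), 5 (LPS-tolerant against LPS-stimulated), 3 (LPS-tolerant against LPS-primed) and 3 (difference between both LPS responses). At that limit 5053, 6243, 2508 and 4845 of the 11305 genes were called in the same order. With a library left out, they were 0 to 1, 2 to 5 (3 h of LPS), 1 to 3, 0 to 1 and 1 to 2 in the order of the LPS comparisons, and 0 for carboplatin. With the block, the ratio results that passed no longer did, but that permutation test could hardly decide this. Its smallest possible p is 0.0313 before adjustment over all ratio tests, so no dependence is read from it. The differences stayed at 0.42 for Smarcc2 to Smarcc1 and 0.48 for Smarcd2 to Smarcd1 with 24 h of LPS. With 3 h they stayed at -1.25 for Smarca2 to Smarca4 and -0.45 for Smarcd2 to Smarcd1. With a library left out, Smarcd2 to Smarcd1 ranged from 0.42 to 0.56 with 24 h and from -0.51 to -0.37 with 3 h of LPS, and Smarcc2 to Smarcc1 with 3 h from -0.36 to -0.23, passing without LPS-tolerant replicate 1. The causes were not tested. The smallest subunit change detectable with 3 samples a group was not tested. Smarcd3 was limited by its depth of at most 6 read pairs.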

Other observations

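The ATPases of other remodelling families included the gene with the largest log2FC among the listed remodeller genes that passed the filter on low counts, Chd7 after 3 h of LPS. Of 20, 19 were tested, and 9 were called after 3 h of LPS, 5 higher and 4 lower, where 51.2% of all genes were called. Chd7, of the CHD family, rose from 11.6, 13.5 and 14.0 CPM in unstimulated to 81.5, 141 and 95.8 CPM in LPS-stimulated BMDMs (log2FC 3.03, SE 0.31, adjusted p = 4.92e-07), and was at 67.3, 47.3 and 50.5 CPM in LPS-tolerant BMDMs. Smarcal1, an annealing helicase of stalled replication forks, fell from 37.7, 39.3 and 33.8 CPM to 15.5, 15.2 and 13.7 CPM (log2FC -1.32, SE 0.15, adjusted p = 1.32e-06). After 24 h of LPS, 3 of the 19 were called, 2 lower and 1 higher, with Ercc6 (log2FC -0.70, adjusted p = 0.00430) and Chd7 (log2FC 1.10, adjusted p = 0.0102) foremost, where 25.2% of all genes were called. Over both carboplatin effects 2 were called, Ercc6 (log2FC 0.39, adjusted p = 0.117) and Chd3 (log2FC 0.34, adjusted p = 0.148), both higher, where 5.95% of all genes were. The Ercc6 call was lost without LPS-primed replicate 2, LPS-primed with carboplatin replicate 1, LPS-tolerant replicate 2 or LPS-tolerant with carboplatin replicate 1, with an adjusted p from 0.264 to 0.292. The Chd3 call was lost without LPS-primed replicate 2, LPS-primed with carboplatin replicate 1 or 3, or LPS-tolerant replicate 2, with an adjusted p from 0.271 to 0.359.

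Gene length and the carboplatin effect were set side by side. Arid1b spans 353 kb and Smarca2 173 kb (GRCm39), the longest of the 24 tested SWI/SNF genes. Their log2FCs over both LPS states, -0.41 and -0.20, were the lowest of the 24. The next longest, Smarcc1 (122.5 kb), Arid2 (118.2 kb) and Pbrm1 (103.1 kb), had log2FCs of 0.08, 0.15 and -0.07. Spearman's rho of span and log2FC was -0.38 over the 24 genes and -0.20 without Arid1b and Smarca2, beside -0.25 over all genes. Over all tested genes with a span, the median log2FC was 0.05 for 7905 genes up to 50 kb, -0.01 for 1749 genes of 50 to 100 kb, -0.16 for 938 genes of 100 to 200 kb and -0.65 for 410 longer genes. The part of length in the values of Arid1b and Smarca2 was not tested.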
